A study of Rattus norvegicus with 4 samples.

Results

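The cytosolic ribosomal protein genes are the genes whose products, together with ribosomal RNA, build the small and large subunits of the ribosome outside mitochondria. They were taken as all genes whose RefSeq accession on the array maps to a rat symbol of the form Rpl or Rps with a digit, or to Rplp0, Rplp1, Rplp2 or Rpsa, without the S6 kinases and Rps19bp1. This gave 92 of 16581 named genes, measured by 206 of 45598 probes. They comprise 45 large subunit genes, 30 small subunit genes, 15 gene copies or paralogs and 2 pseudogenes. The samples were 4 cultures of NR8383, a line of alveolar macrophages that came from the lung lavage of a normal rat, at 20 passages and seeded 48 h before. All 4 had received the multi-walled carbon nanotube NRCWE006 for 4 h, at 1 cm2 of particles per cm2 of culture. Each gave 1 one-colour Agilent array of its total RNA. Cultures without nanotubes were not analysed here. The values therefore cannot give an effect of the nanotubes, and show which members were measurable and how far the 4 cultures differed.

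Ribosomal proteins are made in near equal numbers, since each ribosome carries 1 copy of most of them. Their messengers are among the most abundant in growing cells. Many begin with a terminal oligopyrimidine tract, a run of C and T (U in RNA) that opens with C at the very start of the transcript. Through this tract the mTOR pathway and the binding protein Larp1 turn their translation up or down together, with little need for a change in messenger level.

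The promoter sequences are shown because such a tract is the feature that this family is known to share, and the rule that chose the members did not use it. Of the 75 detected subunit genes, 60 matched a promoter in the RefSeq table of the GRCr8 assembly, with 61 promoters in all. A tract was counted where a C at the annotated start was followed on the sense strand by at least 4 letters, each C or T. The windows below run from 20 bases before the annotated start to 20 bases from it, with the tract in capitals. The first 7 carry it exactly at the start, Rps28 carries it 4 bases further on, and Rps6 and the paralog Rps27l had none within 5 bases of the start.
Rplp0, chr12:46718371-46718410, minus strand: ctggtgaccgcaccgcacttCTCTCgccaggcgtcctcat
Rplp1, chr8:71290853-71290892, minus strand: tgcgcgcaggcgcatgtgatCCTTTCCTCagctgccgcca
Rpl10a, chr20:6390513-6390552, plus strand: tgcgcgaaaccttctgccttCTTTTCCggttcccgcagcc
Rpl14, chr8:129163600-129163639, plus strand: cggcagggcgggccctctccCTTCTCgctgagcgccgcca
Rpl28, chr1:78083513-78083552, minus strand: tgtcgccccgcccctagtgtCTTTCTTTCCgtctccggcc
Rps14, chr18:56498240-56498279, plus strand: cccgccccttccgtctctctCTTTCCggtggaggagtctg
Rps27, chr2:177964587-177964626, minus strand: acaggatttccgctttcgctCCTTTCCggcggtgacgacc
Rps28, chr7:15311314-15311353, minus strand: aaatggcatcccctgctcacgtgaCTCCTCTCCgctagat
Rps6, chr5:106420521-106420560, minus strand: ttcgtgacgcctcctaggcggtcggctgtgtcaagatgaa
Rps27l, chr8:76443638-76443677, plus strand: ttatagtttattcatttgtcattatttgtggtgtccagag

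A tract lay exactly at the start in 23 of the 61 promoters of detected subunit genes (37.7%), against 2.52% of all 21851 promoters of protein coding genes and 2.16% of the 1665 promoters of other detected genes. Within 5 bases of the start it was found in 38 of the 61 (62.3%), against 16.5% of all coding promoters and 18.3% of those of other detected genes. By subunit, 23 of 37 large subunit promoters and 15 of 24 small subunit promoters held it within that distance. None of the 12 promoters of gene copies and paralogs on the array carried it exactly at the start, and 2 carried it within 5 bases. The letters CCGGAAG, the core of sites for ETS family factors, were searched on both strands of the whole 300-base promoter. They stood in 31.1% of the detected subunit promoters, 10.7% of all coding promoters and 22.1% of promoters of other detected genes. In 3 of the 38 promoters with a tract near the start the tract overlapped such a match. AAGATGGC, the core of the YY1 site, was found on either strand in 8.20% of the detected subunit promoters, against 3.67% of all coding promoters and 7.27% of promoters of other detected genes. TATAAA on the sense strand, between 40 and 15 bases before the start, was found in 3.28% of the detected subunit promoters and 1.65% of all coding promoters. A match is a description of letters, and annotated starts can lie off the real start of transcription.

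All 75 subunit genes on the array were detected, meaning that at least 1 probe was well above background on each of the 4 arrays. Over all members, 79 of 92 genes were detected (85.9%), against 11.9% of the 16419 named genes that had a value on every array. Among single probes, 182 of 206 member probes were detected, beside 3208 of 45598 gene probes. Rpl37 and Rps9 were not matched to a probe and were not analysed here. The subunits differed from the gene copies, of which 4 of 15 were detected. These were Rps27l, a paralog of Rps27 that p53 induces in human cells, Rpl37l1 (a copy listed with the synonym Rpl37), Rpl37al3 and Rpl39l1. Rpl27al1 was above background on 2 arrays, and Rpl36al1, Rps12l4 and Rps19l3 on 1 array each. Those above background on no array were Rpl3l (the form of Rpl3 found in striated muscle), Rpl22l1, Rps4y2, Rpl17l5, Rpl27l2, Rpl30l3, Rpl39l5 and the pseudogenes Rps4x-ps1 and Rps7-ps20. Probe sequences were not used here, so how much of a detected signal came from a subunit gene and how much from a copy of it was not tested. The probe of Rpl3l had a processed signal of 15.1 or less on each of the 4 arrays.

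The detected members were among the brightest genes on the arrays. A level is given as the log2 processed signal minus the 75th percentile of the detected probes of that array, so 0 is that percentile and 1 unit is 2-fold. Where a gene had several detected probes, the brightest gave its level. Levels of different probes reflect how well each binds as well as the amount of messenger, so their order is no order of amounts. The median member stood at percentile 96.1 of the levels of all 1946 detected genes. Of the 79 detected members, 64 lay in the top 10% (81.0%), and they made up 32.8% of the 195 genes there. The 182 detected member probes gave 19.5%, 19.6%, 19.2% and 21.1% of the summed signal of detected probes on replicates 1 to 4. Mean levels ran between -1.50 for Rpl27 and 4.26 for Rps15.

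**Figure D1:**
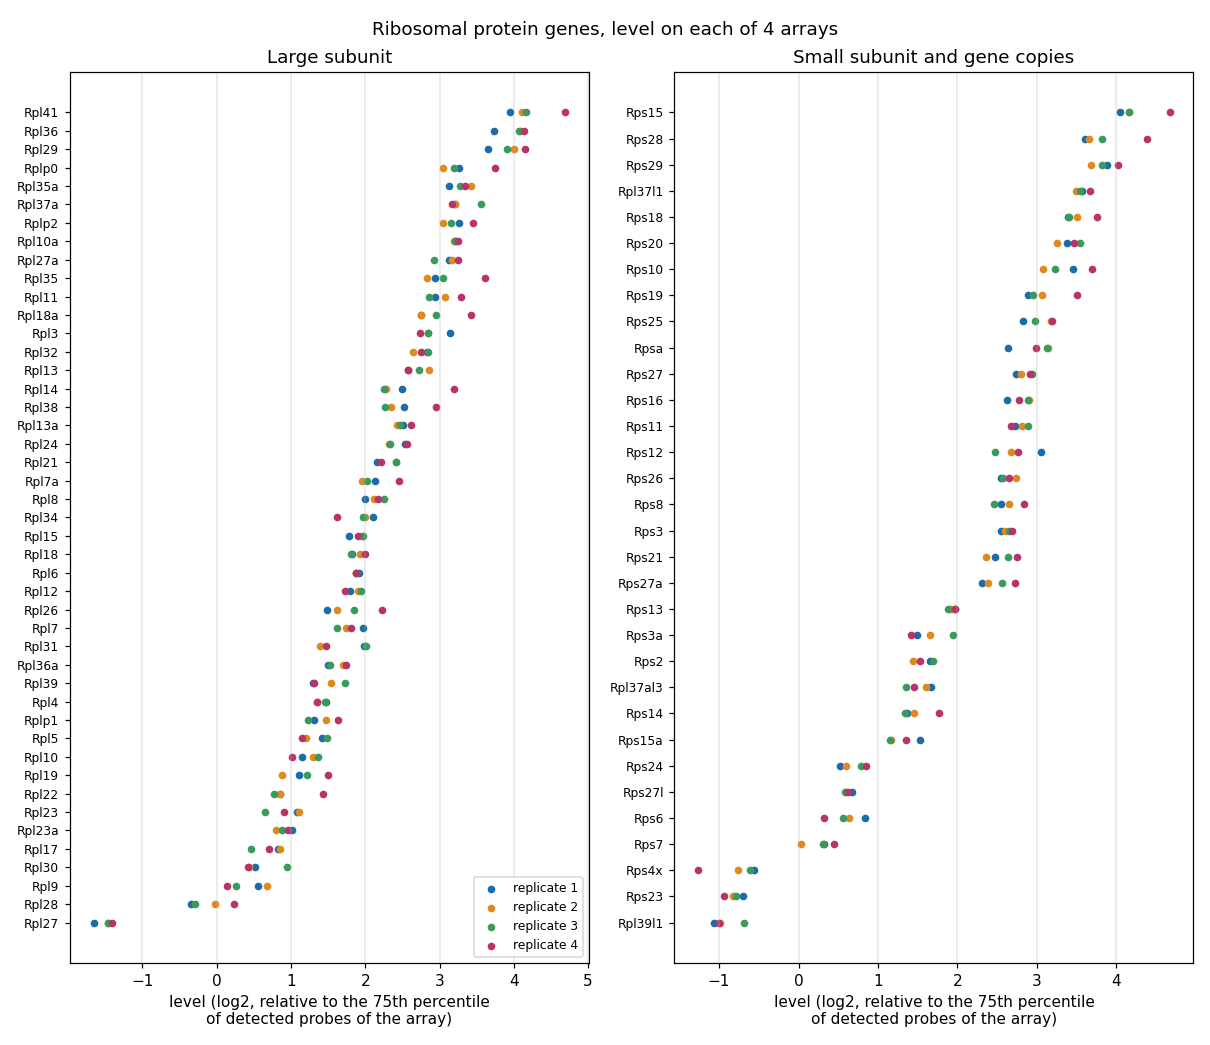
Level of detected ribosomal protein genes on the 4 arrays, with the genes sorted by mean level and the x axis in log2 units relative to the 75th percentile of detected probes. Large subunit genes are on the left and small subunit genes with the 4 detected gene copies on the right, and many of the wide rows have their point for replicate 4 at the high end (Rpl14, Rpl35, Rps28).

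The 4 cultures held these messengers at similar levels. No detected member ranged over 2-fold between its highest and lowest array (0 of 79), against 297 of 1946 detected genes (15.3%). This count rests on the scaling and on the brightest probe of each gene. It was 14 with no scaling, against 1027 of the 1946 detected genes. With the percentile over all gene probes it was 77, against 1806 of the 1946. Of the 117 detected member probes printed once 3 ranged over 2-fold (2.56%), against 416 of all 2216 such probes (18.8%). These 3 were probes of Rpl7a (2.29-fold), Rps28 (2.14-fold) and Rps25 (2.07-fold). The median SD over the 4 arrays was 0.170 on the log2 scale for the members and 0.241 for all detected genes. This order depended on the background correction. Under normexp background correction the median SD was 0.184 for the members and 0.167 for all detected genes. In that setting 0 members and 39 of all detected genes ranged over 2-fold. Bright spots are measured with less noise, and the 201 other detected genes at least as bright as the 10th percentile of the members had a median SD of 0.164, with 3 of them over 2-fold. A spread of that size was thus also seen in these other bright genes, though their median level was below that of the members. The median SD was 0.178 over the large subunit, 0.172 over the small subunit and 0.106 over the 4 gene copies. Between any 2 arrays the median absolute difference of a member was 0.142 to 0.226, and that of all detected genes 0.189 to 0.357. The SDs measure the spread between these samples, which the study calls biological replicates. In a bulk culture, fewer cells with the messenger and less messenger per cell cannot be told apart.

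**Figure D2:**
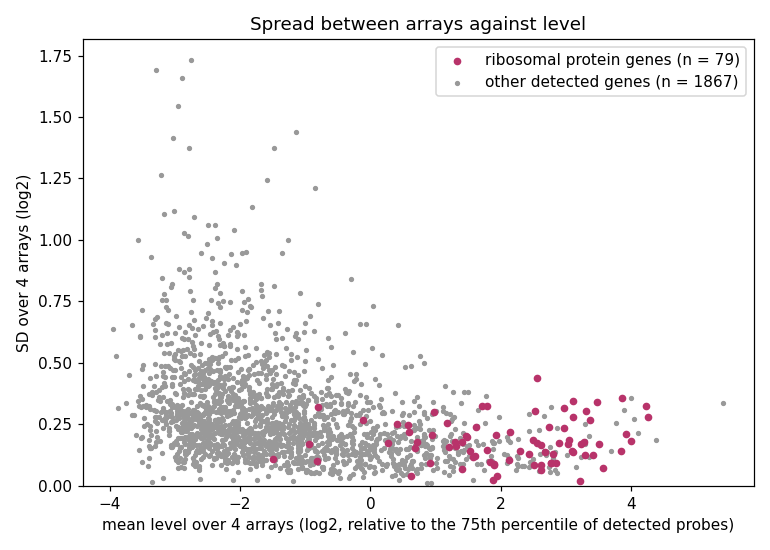
SD over the 4 arrays (y axis, log2) against the mean level (x axis, log2 relative to the 75th percentile of detected probes), with 1 point per detected gene. The 79 ribosomal protein genes lie mostly at the bright end, where the SD of other genes is low too, and none exceeds an SD of 0.44.

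The stalk of the large subunit, which recruits the elongation factors, is built from Rplp0, Rplp1 and Rplp2. The base protein Rplp0 had levels of 3.26, 3.04, 3.19 and 3.74 on replicates 1 to 4. Rplp1 had 1.31, 1.47, 1.23 and 1.63. Rplp2 had 3.26, 3.05, 3.15 and 3.45. All 3 were highest on replicate 4, and their lowest array was replicate 2 or 3. The separate probe of Rplp2 that was printed 10 times gave 0.94, 0.94, 0.76 and 0.88 and was not highest on replicate 4.

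Rpl5 and Rpl11 bind the 5S ribosomal RNA, and outside the ribosome the same particle binds the p53 ligase Mdm2. Rpl5 had levels of 1.42, 1.21, 1.49 and 1.15. Rpl11 had 2.94, 3.08, 2.86 and 3.29. The probe of Rpl11 printed 10 times gave 0.03, 0.07, -0.18 and -0.18, so the high value on replicate 4 came from 1 of its 2 probes. Mdm2 itself was above background on no array.

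The tunnel through which the new protein leaves is lined by Rpl4, Rpl17 and Rpl39, and its mouth is ringed by Rpl19, Rpl23a, Rpl26, Rpl31 and Rpl35. All 8 were detected, with a median SD of 0.230. Rpl4 was steady at 1.47, 1.36, 1.46 and 1.34. Rpl35, which helps to dock the signal recognition particle, had 2.94, 2.83, 3.05 and 3.61. It was highest on replicate 4, also by its probe printed 10 times (-2.01, -1.77, -1.71 and -1.59). The 2 probes of Rpl26 did not share an order, with 1.49, 1.62, 1.85 and 2.22 by 1 and 2.03, 1.64, 1.55 and 1.67 by the other. The brighter probe of Rpl31 had 1.98, 1.40, 2.01 and 1.48, and the dimmer had 0.17, 0.10, 0.19 and 0.67, so these did not share an order either.

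In the small subunit, Rps2 and Rps3 sit where the messenger enters, Rps15 and Rps23 near the decoding site, and Rps14, Rps26, Rps28 and Rpsa towards the messenger exit. All 8 were detected, with a median SD of 0.159. Rps28 had levels of 3.60, 3.66, 3.81 and 4.38. Rps15 had 4.04, 4.16, 4.16 and 4.67. Both had 3 arrays close together and replicate 4 above them. Rps3 had 2.54, 2.60, 2.64 and 2.69, and Rps26 had 2.54, 2.73, 2.57 and 2.65, so these differed little over the 4 cultures. Rpsa, the laminin receptor protein, was lowest on replicate 1 at 2.63, beside 3.13, 3.13 and 2.99.

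Some members have roles in signalling. Rps6, the substrate of the S6 kinases, had levels of 0.84, 0.63, 0.55 and 0.31 and was lowest on replicate 4. Rps27a, made as a fusion with ubiquitin, had 2.30, 2.38, 2.56 and 2.72. Rpl13a, which in human monocytes is released to silence inflammatory messengers after interferon-gamma, had 2.51, 2.43, 2.47 and 2.62. Rps6 thus ran opposite to Rps27a over these arrays, while Rpl13a varied with an SD of 0.08. Of the S6 kinases, Rps6kb1 was above background on no array. Rps6kb2 was detected at -3.59, -2.97, -3.17 and -3.45, and Rps6ka1 at -0.43, -0.26, -0.66 and -0.65.

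The 9 genes on the list of those whose loss causes Diamond-Blackfan anaemia in humans, among them Rps10, Rps19, Rps24 and Rpl35a, were all detected. Rps19 had levels of 2.89, 3.07, 2.95 and 3.51. Rps10 had 3.45, 3.08, 3.23 and 3.69. Rps24 was dimmer, at 0.53, 0.60, 0.79 and 0.85. Of the 9, 6 were highest on replicate 4 (66.7%), beside 51.9% of all detected members and 30.1% of all detected genes. Rpl11, counted among the 6, was highest there by 1 of its 2 probes. Only Rpl5 of the 9 was lowest there.

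Among all detected members the largest SD was that of Rpl14, with levels of 2.50, 2.29, 2.26 and 3.19 (SD 0.44, n = 4). Rps28 (SD 0.36) and Rpl35 (SD 0.35) followed, and the smallest SDs were those of Rpl10a, Rpl6, Rps27l and Rps13. Of the 10 members with the largest SD, 9 took their value from a probe printed once, as did 60 of all 79, and 8 were highest on replicate 4. The 5 with the smallest SD all took it from a probe printed 10 times. Rpl10a, which sits at the exit for spent transfer RNA, had 3.22, 3.20, 3.21 and 3.25 (SD 0.02, n = 4). Rpl6 had 1.92, 1.88, 1.87 and 1.88. The paralog Rps27l had 0.67, 0.59, 0.58 and 0.62. Rpl41, the smallest ribosomal protein, had 3.95, 4.11, 4.16 and 4.69.

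Probes printed 10 times gave a measure of the noise between spots, and 47 member genes had one. Of the 65 such member probes that were detected, 45 differed between the arrays (69.2%), against 74.6% of all 709 detected probes of this kind (limma's moderated F test over spots, adjusted p below 0.05 by Benjamini-Hochberg over all 1350 probes printed 10 times). The share among the members was thus close to that of all such probes. None of the 65 both differed and ranged over 2-fold, against 4.94% of the 709. This test compares arrays, since its residual is the noise between spots, and each culture had 1 array. The median SD between the spots of an array was 0.177 for the members (0.104 to 0.372) and 0.189 for all. The SD over the arrays exceeded that spot SD in 18 of the 65. The 2 SDs are unlike measures, since each array value is a mean over spots and the spot SD describes single spots. This count therefore does not say how many probes varied beyond the spot noise.

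Rps4x, the X-linked small subunit gene, gave the smallest adjusted p of the members in the moderated F test (5.29e-13). Its levels were -0.56, -0.76, -0.61 and -1.26, so replicate 4 lay below the other 3 arrays by more than their own spread. Rpl28, a large subunit protein, had -0.34, -0.02, -0.29 and 0.23 (adjusted p = 4.77e-11 by limma). Here replicates 2 and 4 lay above replicates 1 and 3. Rpl39, in the wall of the tunnel, had 1.03, 1.41, 1.36 and 1.52 by 1 of its 3 probes printed 10 times (adjusted p = 3.29e-09 by limma). It was lowest on replicate 1. The other such probes of Rpl39 had an adjusted p of 6.14e-06 and 0.455 by limma. Its brightest probe, printed once, had 1.30, 1.54, 1.72 and 1.30. Rps6 had an adjusted p of 2.71e-08 by limma, highest on replicate 1 and lowest on replicate 4 (levels above). Rpl35a had -1.60, -1.06, -0.93 and -0.93 by its probe printed 10 times (adjusted p = 1.10e-07 by limma), with replicate 1 below the rest. At the other end, the probe of Rps27 printed 10 times had 0.94, 0.96, 0.95 and 0.98, a range of 1.03-fold (adjusted p = 0.955 by limma). The brightest probe of Rps27, printed once, had 2.74, 2.80, 2.94 and 2.91. Its 4 probes printed once had a mean SD of 0.164, beside 0.018 for the probe printed 10 times. Rpl6 (adjusted p = 0.877), Rpl10a (0.796 and 0.823 for its 2 such probes) and Rpl13a (0.776) did not pass the same limma test either.

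**Figure D3:**
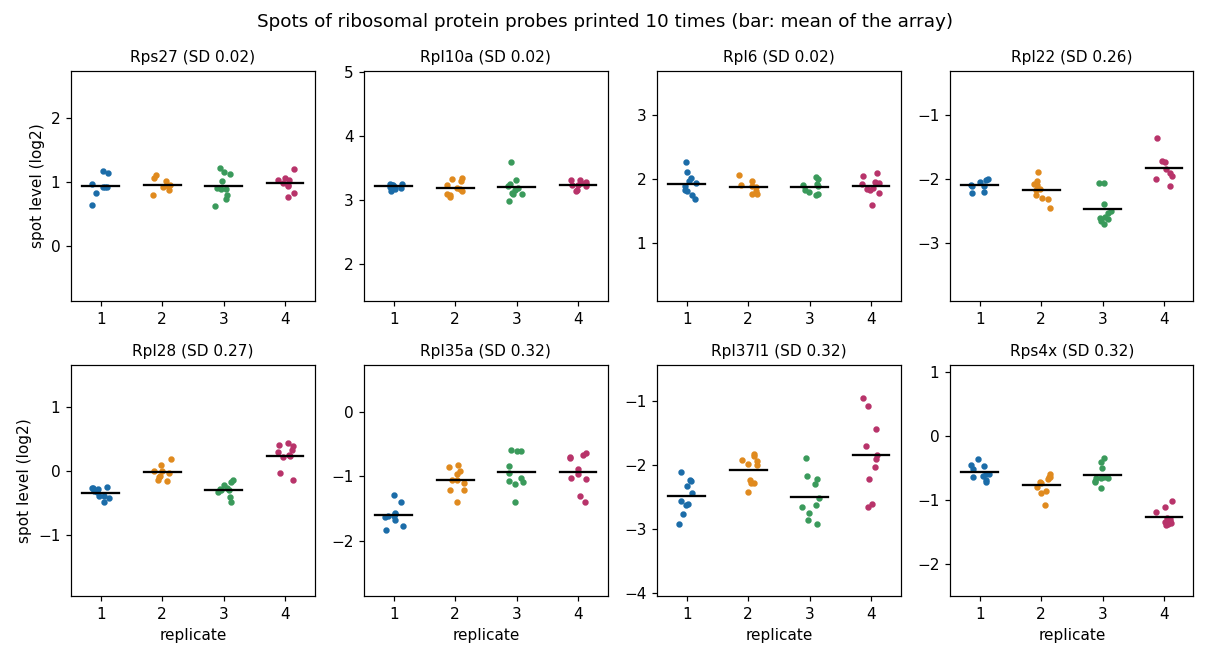
Level of each usable spot (y axis, log2; all panels span the same height) of 8 member probes printed 10 times, by replicate (x axis), with the mean of the array as a bar. The 3 probes with the smallest SD over arrays (Rps27, Rpl10a, Rpl6) and the 5 with the largest are shown, and the spots of Rps4x on replicate 4 lie below nearly all of its other spots.

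Replicate 4 stood apart for the members as a group. There, 41 of 79 members had their highest level (51.9%), against 30.1% of all detected genes, and 15 had their lowest (19.0%), against 39.6%. Among the 201 other genes at least as bright as the 10th percentile of the members, 30.3% were highest and 28.4% lowest on replicate 4. Their median level was 1.25 to 1.31 over the 4 arrays, below the 2.27 to 2.56 of the members. The deviation of a gene on an array is its level minus the mean of the other 3. Its median on replicates 1 to 4 was -0.084, -0.033, -0.035 and 0.081 for the members, and 0.047, 0.003, 0.006 and -0.071 for all detected genes. On replicate 4 the members were thus shifted by 0.152 relative to all detected genes, the large subunit by 0.135 and the small subunit by 0.216. The 201 other bright genes were shifted by 0.084. On replicate 1 the members lay 0.131 below all detected genes, and 27 of 79 had their lowest level there (34.2%, against 19.9%). Of the 201 other bright genes, 61 were lowest on replicate 1 (30.3%), a share close to that of the members. The shift on replicate 1 turned to 0.109 under normexp background correction and to 0.533 with no filter on dim probes. In that last setting the comparison was with all named genes, detected or not. Their median deviation was -0.620, beside -0.087 for the members. These are descriptions with no test, as each culture had 1 array.

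The share of member probes highest on replicate 4 was lower among probes printed 10 times than among those printed once. That of the other probes was lower too. Among probes printed 10 times, 27 of 65 member probes were highest on it (41.5%), against 163 of 644 other such probes (25.3%). Their median deviation was 0.056 against -0.067. Among probes printed once, 61 of 117 member probes were highest on it (52.1%), against 732 of 2099 others (34.9%), and the median deviation was 0.161 against -0.001. The shift relative to all detected genes was 0.392 under quantile normalization. It went to -0.009 under normexp background correction, so its direction was lost there. With no filter on dim probes the comparison was with all named genes, detected or not, and the shift reversed to -0.690. The median deviation of the members was then 0.117, and that of all those genes 0.807. The array of replicate 4 had 656 gene spots flagged as non-uniform, beside 9 to 34 on the others, and 6476 probes called above background, beside 4252 to 5722. It also had the lowest 75th percentile of detected probes (223, beside 236 to 384) and the highest median of negative control spots (4.65, beside 2.98 to 3.36). The part of these in the shift was not tested. All 4 arrays lay on 1 slide with 1 scan time.

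**Figure D4:**
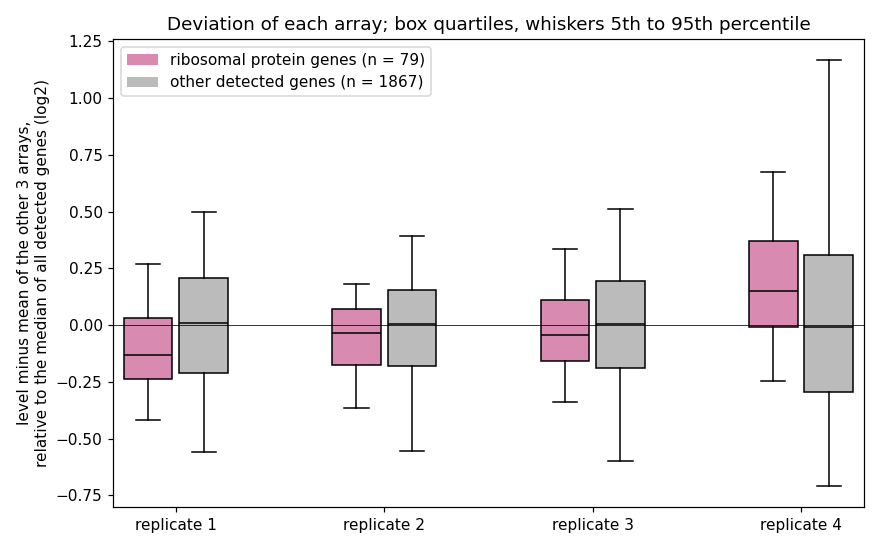
Deviation of each gene on each array (y axis, log2, level minus the mean of the other 3 arrays, set to 0 at the median of all detected genes), for the 79 ribosomal protein genes (left box of each pair) and the 1867 other detected genes (right box). Boxes span the quartiles with the median as a line and whiskers run between the 5th and 95th percentiles, and on replicate 4 the median of the members is 0.152.

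Genes with several probes allow each value to be checked against another probe of the same messenger. Of the members, 53 had several detected probes, and the largest gap between the deviations of 2 probes of a gene had a median of 0.42, beside 0.43 over the 235 detected genes of this kind. Signal differed more, by a median of 5.36-fold between the brightest and dimmest detected probe of a member, and by up to 55.5-fold. In 30 of the 53 members all detected probes deviated the same way on replicate 4, a share similar to the 135 of the 235 detected genes of this kind. Among those, 24 of the 30 members and 69 of the 135 genes deviated upward, a larger share among the members. The 235 include the 53 members. In 34 members with probes of both kinds, the brightest probe printed once was the brighter in 25, by a median of 3.83-fold over all 34. The probe printed 10 times had the smaller SD in 27 of these 34.

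For Rpl14 the large SD rested on 1 probe. Its probe printed once gave 3.19 on replicate 4, beside 2.50, 2.29 and 2.26. Its 2 probes printed 10 times gave 0.64 there beside 0.71, 0.94 and 0.77, and 0.42 beside 0.19, 0.30 and 0.28. Neither of them placed replicate 4 far above the others. The largest gap of all was in Rpl7a, where 1 of 5 detected probes had -1.62 on replicate 1 beside -2.56, -2.48 and -2.82, while its brightest had 2.13, 1.96, 2.03 and 2.45. For Rps25, needed in human cells for some forms of internal initiation, a probe printed once fell to 1.27 on replicate 3, beside 2.25, 2.31 and 2.11. Its probe printed 10 times gave 2.97 on that replicate, beside 2.83, 3.17 and 3.18, and was not the lowest there. The third detected probe of Rps25, printed once, had 0.51, 0.89, 0.27 and 0.73 and was also lowest on replicate 3.

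In Rps28 and Rps10 most detected probes were highest on replicate 4, though the order of the other arrays differed between probes. Rps28 had 4 detected probes, all printed once. The brightest had 3.60, 3.66, 3.81 and 4.38, and the next had 3.12, 2.92, 3.05 and 4.02. Of the others, 1 had 2.62, 2.65, 2.59 and 2.97, and the dimmest had 1.92, 2.22, 1.71 and 2.18. Replicate 4 was highest in 3 of the 4, and in the dimmest it lay just under replicate 2. The 3 probes of Rps10 printed 10 times had their level on replicate 4 at -1.45, 0.04 and 1.19, which was the highest array for the last 2. In all, 5 members had a detected probe and another that was above background on no array (9.09% of the 55 detected members with several probes, beside 46.8% of all such genes), namely Rpl7, Rpl15, Rpl27a, Rpl28 and Rpl36a.

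**Figure D5:**
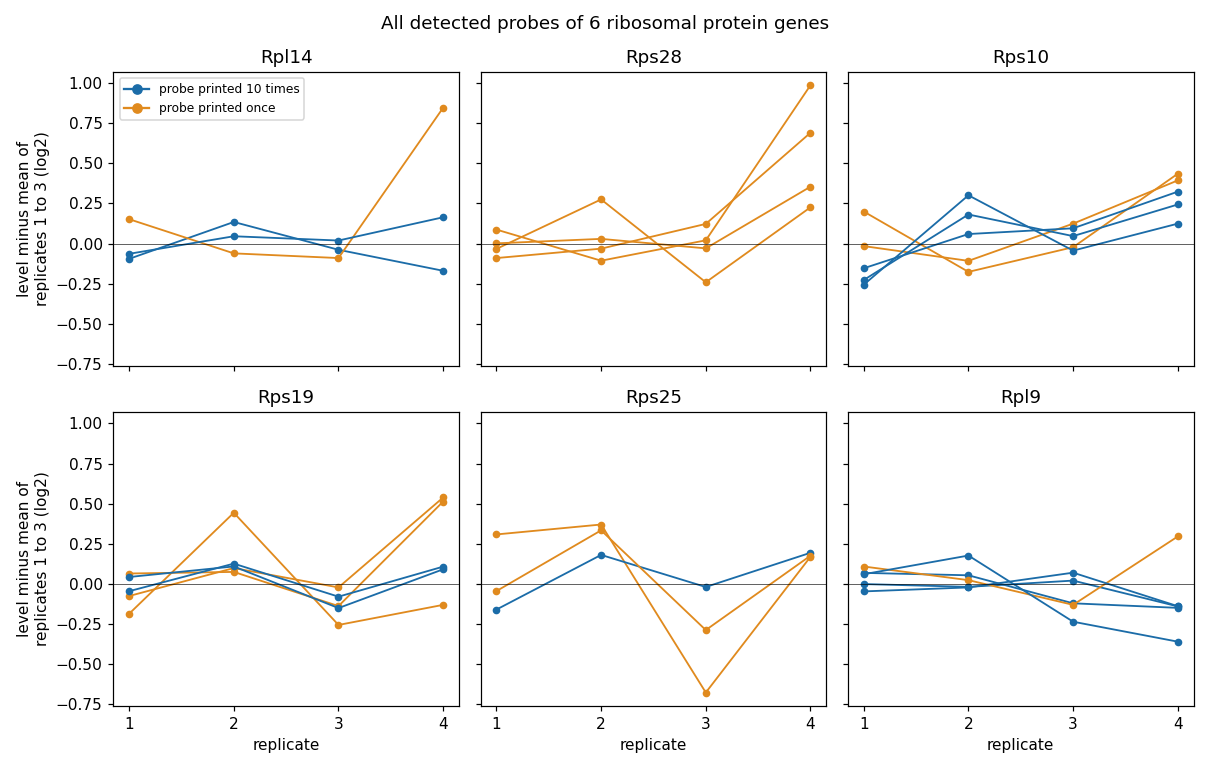
Level of every detected probe of Rpl14, Rps28, Rps10, Rps19, Rps25 and Rpl9 on each array, minus the mean of that probe on replicates 1 to 3 (y axis, log2), with lines joining the values of 1 probe. Probes printed 10 times are blue and probes printed once orange, and for Rpl14 only the orange probe is far above 0 on replicate 4.

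Fau and Rack1 are ribosomal proteins that the naming rule misses, and both were detected. Fau, which carries a small subunit protein, had 2.34, 2.41, 2.45 and 2.53. Rack1, a scaffold on the small subunit, had 0.03, -0.02, 0.27 and -0.08. Fau was highest on replicate 4, and Rack1 was not.

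Other messengers listed as having a known tract at their start were mostly not highest on replicate 4. Of 13 such genes on the list, 11 were detected. On replicate 4, 1 of the 11 was highest (9.09%, against 30.1% of all detected genes) and 6 were lowest (54.5%, against 39.6%). Their median shift there was -0.139 relative to all detected genes. Eef1a1, the factor that brings transfer RNA to the ribosome, had 2.28, 1.98, 2.25 and 1.88. Eef2, which moves the ribosome along, had 0.45, 0.22, 0.15 and 0.63. Eef1b2, the exchange factor, had 1.00, 0.70, 0.77 and 0.62. Eef2 was thus the exception that was highest on replicate 4. By the tract rule used above, the promoter of Eef2 held no tract within 5 bases of the start. That of Eef1a1 held a tract within 5 bases of the start but not exactly at it. These genes were fewer and dimmer than the members, and the difference between the lists was not tested.

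Of 18 ribosome assembly genes on the array, 8 were detected and 7 were above background on no array. Npm1, a nucleolar chaperone, had -0.90, -0.92, -0.02 and -0.79. Ncl, which acts on ribosomal RNA precursors, had -1.77, -2.30, -1.56 and -2.18, and Fbl, which methylates ribosomal RNA, had 0.93, 0.76, 0.99 and 0.58. All 3 were highest on replicate 3. Of 11 regulators, 5 were detected, among them Rptor of the mTOR complex, while Mtor and Sbds were above background on no array.

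The macrophage label was checked with 12 markers, of which 5 were detected, namely Cd68, Lyz2, Spi1, Fcgr1a and Tyrobp. Csf1r, Cd14, Itgam and Mrc1 were above background on no array. Cd68 and Spi1 were dim, with signals of 16.3 to 34.6 and 21.8 to 53.9 over the arrays. None of the markers of lung epithelium (0 of 8), fibroblasts (0 of 6), lymphocytes (0 of 4) or granulocytes (0 of 4) was detected. Of the 8 lung epithelium markers, 7 were above background on no array. Only 11.9% of all named genes were detected, so 0 in such short lists says little.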

How the data were processed

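Each deposited file holds the scanner's spot intensity for 1 array in linear units, per the file headers. The processed signal is the intensity after background subtraction by Agilent Feature Extraction 11.0.1.1, per the submitters' processing notes. The well above background, non-uniform and outlier flags are other values deposited with each spot.

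Control spots (4259 per array) and gene spots with those last 2 flags (596, 546, 560 and 1296) were left out of the 58717 gene spots. The log2 signals of a probe's spots were averaged. A probe was called where over 50% of its spots were well above background, and detected when called on all 4 arrays. Arrays were scaled by the 75th percentile of detected probes. Accessions were matched to the RefSeq table of GRCr8, which named 21109 probes. The headers name an older build, so coordinates are those of the promoter table only. The number of arrays limits the precision.

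Probes with at least 3 usable spots per array were tested with limma 3.58.1 in R 4.3.3, and the test was tried on simulated data. Python 3.11.15, numpy 2.4.6 and pandas 2.3.3 did the rest. The alternatives were percentile over all probes, quantile normalization, no scaling, normexp with an offset of 50, other detection rules, no filter, flagged spots kept, mean over probes, subunit proteins only, and each replicate left out. Counts of ranges over 2-fold and the comparison with bright genes were added after seeing the data.

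The members and lists were chosen with earlier results of these data known. Named were every member with a probe printed 10 times, of the others the 6 largest and 6 smallest SDs, the role lists, members never above background, up to 6 members whose probes differ most and up to 3 detected genes of each other list. Of these, the genes most relevant to each result are given with values. Some members and listed genes are counted in the totals and are not reported here by name.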

Additional observations from a re-analysis of the deposited data

Results flagged for a closer look

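Single arrays that lay far from the other 3 of the same gene were sought among the 79 detected members and 32 other listed genes, by the gap to the nearest array as a share of the whole range. Chance flags about 1 in 20 such groups. It picked 3 of the members (3.80%) and 3 of the others (9.38%). Rpl22, a large subunit protein, was highest on replicate 4 at a level of 1.43, with the nearest array at 0.86. Its second probe printed once had 0.49, 0.52, 0.50 and 0.63. Rpl36 was lowest on replicate 1 at 3.74, with the nearest at 4.07, and its next brightest probe was lowest there too (3.55, 3.83, 3.68 and 4.34). Rpl37a was highest on replicate 3 at 3.55, with the nearest at 3.21. Of the other genes, the initiation factor Eif3f was lowest on replicate 4 at 0.88 (nearest 1.19), the assembly factor Npm1 was highest on replicate 3 at -0.016 (nearest -0.79), and the macrophage factor Spi1 was highest on replicate 4 at -2.05 (nearest -3.44). Levels of Rpl22, Rpl36, Rpl37a, Npm1 and Spi1 come from probes printed once.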

How the results depend on the processing

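The count of detected members lay between 75 and 80 under its 8 alternatives and the count of members whose probes disagree between 4 and 5 under its 4 alternatives. The count of member probes printed 10 times that differ between arrays lay between 30 and 65, and was 30 to 38 with 1 replicate left out, lowest without replicate 1. The counts over 2-fold and the medians moved with scaling. With the percentile over all gene probes, 65 member probes printed 10 times both differed and ranged over 2-fold, against 699 of 709 detected ones. Of the genes, 77 members ranged over 2-fold, against 1806 of 1946 detected genes. The median SD was 0.746 for the members and 0.851 for all detected genes. The median deviations on replicates 1 to 4 were 0.446, 0.713, 0.254 and -1.48 for the members. Over all detected genes they were 0.577, 0.749, 0.296 and -1.64. With no scaling these 2 counts were 10 and 14, against 281 and 1027 over all detected probes of this kind and all detected genes. The median SD was 0.342, against 0.456 over all detected genes. The median deviations on replicates 1, 3 and 4 were 0.562, -0.327 and -0.318, against 0.694, -0.285 and -0.470 over all detected genes. In both settings the members' shift relative to all detected genes stayed at -0.131 on replicate 1 and 0.152 on replicate 4. Under quantile normalization the 2 counts were 1 and 2, against 130 and 641 over all detected. With no filter on dim probes they were 2 and 12, against 511 probes and 11906 named genes, detected or not. The cause was not tested. With 1 replicate left out both counts stayed at 0 for the members, against 9 to 33 probes and 90 to 279 genes over all detected. The count of detected members stayed at 79, and their median SD lay between 0.126 (without replicate 4) and 0.180. The median deviation was then -0.112 to 0.047 on replicate 1, -0.067 to -0.047 on replicate 2, -0.066 to -0.033 on replicate 3 and 0.103 to 0.147 on replicate 4. The sign of a member's deviation on replicate 4, relative to all detected genes, was compared between settings. It was kept in 57 of 79 under normexp correction and in 60 under quantile normalization. With no filter the comparison was with all named genes, detected or not, and the sign was kept in 22. Signals near background limit what can be said of the undetected members, and no spot was saturated. No paired analysis was possible because the samples form 1 group.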
